A study of Mus musculus with 18 samples.

Results

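The cells compared here were sorted on embryonic day 12.5 (E12.5) from the yolk sac and from the brain of mice of 1 strain. Their transcripts were counted by MARS-seq, which sorts single cells into the wells of a plate. It tags every captured molecule with a unique molecular identifier (UMI) and reads the 3′ end of polyadenylated RNA. Libraries were chosen by the tissue and age in their source name, which gave 4 yolk sac and 4 brain libraries, 8 of the 18 in the series. Wells were taken when they held 1 sorted cell and at least 300 UMIs on genes. This kept 671 of 760 yolk sac wells and 718 of 760 brain wells, 1389 of the 3012 kept in the whole series. All 8 libraries came from C57BL/6J mice with a green fluorescent reporter at Cx3cr1, through 1 gate of CD45-, CD11B- and reporter-positive cells, and the labels name no treatment. The gate was meant to leave out cells without the reporter, and its purity was not tested. The well annotation gives 1 subject number to all 8 libraries, and 2 libraries shared each plate. Whether the libraries are separate litters or parts of 1 sort is not stated, so the p-values below rest on a spread that may be technical.

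Macrophages of the yolk sac arise from the first wave of blood formation in the embryo, before definitive hematopoietic stem cells appear. Some of their progenitors enter the brain and become microglia, the resident macrophages of the central nervous system. Within the brain, transforming growth factor beta and the transcription factor Sall1 are known to set the microglial programme. Macrophages outside the brain tissue, including those at its borders, typically keep scavenger receptors such as Mrc1 and clear proteins and dying cells from their surroundings. The comparison sets cells of the same age and the same gate side by side in the 2 tissues.

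Library totals ran from 269698 to 309084 UMIs in yolk sac and from 228467 to 534219 in brain, with medians of 1511 and 1725 UMIs per kept well. Levels are UMIs scaled to a library total of 1000000 (CPM) and are listed for replicates 1 to 4 in order. Sequencing batches split the libraries by plate: yolk sac replicates 1 and 2 shared a batch with brain replicates 3 and 4, and the other 2 plates shared a batch with no library of the other tissue at this age. The genes behind the gate were read in both tissues. Ptprc, which encodes CD45, was at 159, 203, 249 and 145 CPM in yolk sac and 322, 219, 94.3 and 114 CPM in brain (edgeR log2 fold change 0.02, SE 0.29, adjusted p = 0.98). Itgam, which encodes CD11B, was at 122, 98.0, 388 and 282 CPM in yolk sac and 558, 499.8, 266 and 206 CPM in brain (edgeR log2 fold change −0.75, SE 0.38, adjusted p = 0.23), and the brain and yolk sac libraries overlapped for both. Within the shared batch Itgam was lower in yolk sac (−1.08, edgeR adjusted p = 3.16e-04), as with the batch as a covariate (−1.11, 0.00295), and Ptprc was higher in the shared batch (0.82, 0.0179) but not called with the covariate (0.79, 0.18). Cx3cr1, the gene that carries the reporter, was at 33.3, 58.1, 107 and 137 CPM in yolk sac and 180.0, 238, 124 and 105 CPM in brain, lower in yolk sac (edgeR log2 fold change −0.93, SE 0.30, adjusted p = 0.0263). That call was lost without yolk sac replicate 1 or 2 or brain replicate 1 or 2 (adjusted p from 0.0638 to 0.141). Hemoglobin transcripts summed to 218, 5040, 1475 and 2481 CPM in yolk sac and 40.5, 16.8, 171 and 61.3 CPM in brain, highest in yolk sac replicate 2. Summed markers of granulocytes and their precursors were at 429 to 1557 CPM in yolk sac and 78.9 to 162 CPM in brain. Those of yolk sac endoderm were at 126 to 327 CPM in yolk sac and 3.74 to 8.09 CPM in brain. Those of neural cells were at 25.9 to 80.9 CPM in yolk sac and 524 to 629.9 CPM in brain. Of 14 endoderm rows 10 were at 0 in all brain libraries, and of 17 neural rows 15 were at 0 in all yolk sac libraries. Most of the neural sum in brain was the intermediate filament gene Nes, at 25.9, 32.7, 80.9 and 66.7 CPM in yolk sac and 403, 487, 419.9 and 350.2 CPM in brain, and its difference (edgeR log2 fold change −2.95, SE 0.30, adjusted p = 6.78e-10) was also called among wells rich in C1q (adjusted p = 8.20e-11). Endothelial markers overlapped between the tissues, at 336 to 777 CPM in yolk sac and 404 to 484 CPM in brain. The part of other cell types in the results below was not tested beyond these values. All 8 libraries use the same 192 cell barcodes, which the pool barcode of each library separates.

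Some genes used to mark macrophages were read next. C1qc, a chain of the complement recognition protein C1q, was at 3737, 3592, 3766 and 3989.7 CPM in yolk sac and 4649, 4914, 4486 and 4154 CPM in brain (edgeR log2 fold change −0.23, SE 0.11, adjusted p = 0.17). Tyrobp, the signalling adaptor of many myeloid receptors, was at 3260.0, 3273, 3028 and 3456 CPM in yolk sac and 3338, 3506, 2944 and 2399 CPM in brain (edgeR log2 fold change 0.14, SE 0.13, adjusted p = 0.58). C1qb was slightly lower in yolk sac (edgeR log2 fold change −0.31, SE 0.11, adjusted p = 0.0407), a call that was lost whichever of the 8 libraries was left out (adjusted p from 0.0512 to 0.131). Csf1r, the receptor that macrophages need to survive, was lower (edgeR log2 fold change −0.49, SE 0.12, adjusted p = 0.00255). C1qa, the remaining chain, was lower and is given with the complement genes below. Wells with under 5 C1q UMIs per 1000 made up 82 of 671 in yolk sac, between 11.6% and 13.1% of a library. Such wells made up 55 of 718 in brain, between 4.28% and 10.5%. C1q transcripts were themselves lower in yolk sac, most clearly C1qa, so a fixed cut can place more yolk sac wells below it. Neither these shares nor a restriction by the cut can separate other cell types from macrophages with less C1q. Restricting the libraries to the other wells, an alternative chosen after seeing the data, left 723 of the 774 genes called below still called.

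Of 4883 genes that passed the filter on low counts, 774 (15.9%) differed between the tissues at a Benjamini-Hochberg adjusted p under 0.05 in edgeR's quasi-likelihood test. Of these, 344 (7.04% of those tested) were higher in yolk sac and 430 (8.81%) lower, and the median log2 fold change of all tested genes, written throughout as yolk sac minus brain, was −0.05. The larger number on the lower side did not hold in all fits: with the 8 E12.5 libraries alone, 348 genes were higher and 310 lower. Changes beyond 2-fold made up 236 of the higher and 288 of the lower genes. The higher genes together took 15.5% of yolk sac UMIs and 7.09% of brain UMIs, and the lower genes 7.40% and 15.8%. For 973 genes (19.9%) the levels of the 2 tissues did not overlap. Genes named below for the size of their change had to be among these, so their lack of overlap follows from the naming rule. At the other end, 175 genes (3.58%) had a 95% interval within 0.5 of 0 on the log2 scale. Among the most abundant of these were Gnai2, an inhibitory G protein subunit, at 0.08 and the chaperone Hsp90ab1 at −0.05. The cytochrome oxidase subunit Cox4i1 was at −0.01 and Fth1, the heavy chain of ferritin, at 0.08.

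**Figure D1:**
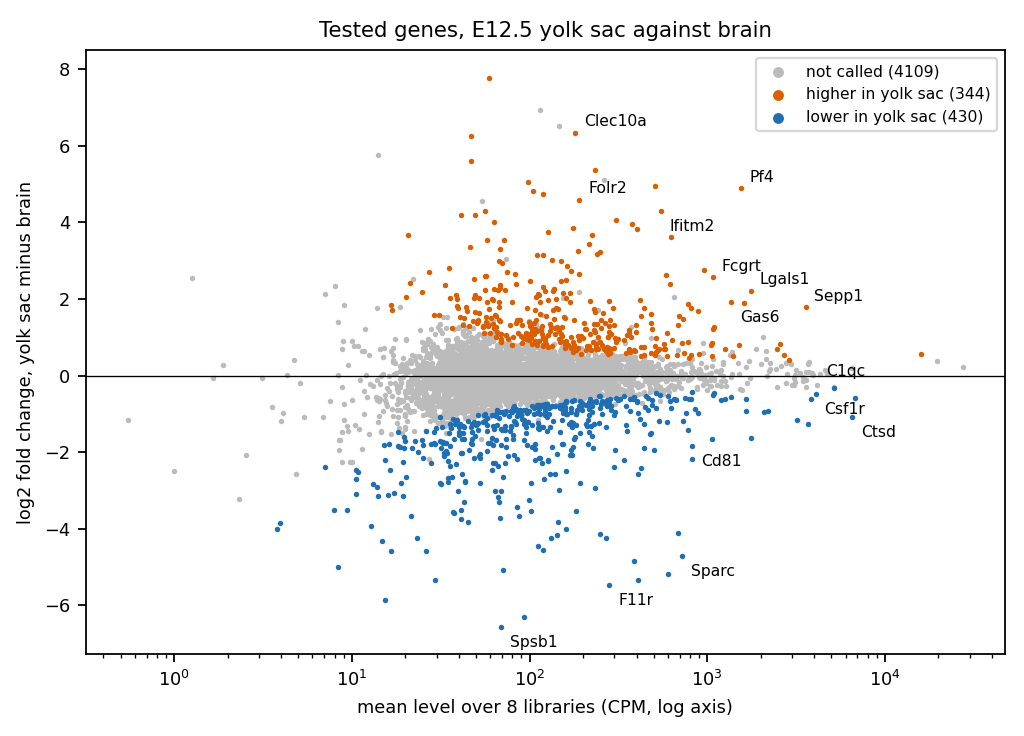
Log2 fold change (yolk sac minus brain, y axis) of tested genes against their mean level over the 8 libraries (CPM, log axis), with the 344 genes higher in yolk sac and the 430 lower genes coloured. The named genes at the lower edge include Spsb1 at −6.56 and those at the upper edge Clec10a at 6.34, 3 tested genes without a UMI in these libraries are not drawn, and most abundant genes lie near 0.

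Because batch and plate run with tissue for the other 4 libraries, the comparison was repeated within the shared batch, yolk sac replicates 1 and 2 against brain replicates 3 and 4. Of the 774 called genes, 684 had a value there, and 553 were called again. These 4 libraries are among the 8 that gave the calls, so the values are within-batch values and no separate support. With the batch as a covariate in the fit of all libraries, 447 of the 774 were called. In the shared batch each tissue is 1 plate, so plate and tissue cannot be told apart in it.

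**Figure D2:**
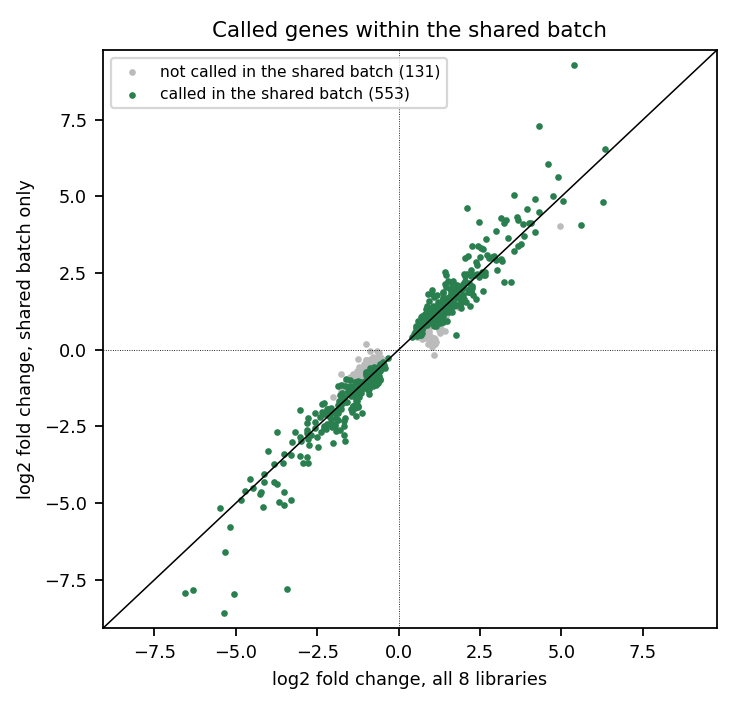
Log2 fold change within the shared sequencing batch (yolk sac replicates 1 and 2 against brain replicates 3 and 4, y axis) against that from all 4 libraries of each tissue (x axis) for the 684 called genes with both values; the line marks equality. Of these genes 553 were called in the shared batch, and the 4 libraries behind the y axis are also in the x axis.

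Transcripts that mark microglia in the adult were present in the brain cells and lower in the yolk sac cells. All 24 tested markers were lower in yolk sac, against 8.81% of all tested genes. Their log2 fold changes ran from −5.18 to −0.49, with a median of −3.03. Summed over the list, yolk sac libraries held 10504 to 11919 CPM and brain libraries 24320 to 26269 CPM. A large part of both sums came from abundant members that other macrophages also express. The mean level of Cst3 was 5367 CPM (yolk sac) against 8203 CPM (brain), and that of Csf1r was 3346 against 4798 CPM. The sums therefore say little about less abundant members of the list. Sparc, a secreted matrix-binding glycoprotein, was at 18.5, 90.7, 67.9 and 26.0 CPM in yolk sac and 1402, 1438, 1423 and 1287 CPM in brain (edgeR log2 fold change −4.71, SE 0.23, adjusted p = 7.77e-18). Its values varied little between the brain libraries, and the highest yolk sac library lay far below the lowest brain library. Slc2a5, a fructose transporter, was at 14.8, 3.63, 9.71 and 7.42 CPM in yolk sac and 204, 206, 236 and 210.1 CPM in brain (edgeR log2 fold change −4.46, SE 0.29, adjusted p = 7.07e-16). Rtn4rl1, a receptor related to the Nogo receptor, was at 14.8, 10.9, 6.47 and 3.71 CPM in yolk sac and 208, 213, 291 and 206 CPM in brain (edgeR log2 fold change −4.56, SE 0.32, adjusted p = 7.49e-15). The nucleotide receptors were less abundant, P2ry12 at 3.70, 10.9, 9.71 and 18.5 CPM in yolk sac and 97.1, 71.1, 68.6 and 65.7 CPM in brain (edgeR log2 fold change −2.74, SE 0.44, adjusted p = 5.89e-06) and P2ry13 at 0, 0, 3.24 and 3.71 CPM in yolk sac and 101, 71.1, 8.57 and 21.9 CPM in brain. P2ry13 was 35.8 times higher in brain by summed UMIs (exact 95% interval 9.65 to 300.3, covering counting error only, 2 UMIs in yolk sac) and was not called with the batch covariate (adjusted p = 0.225). Markers that other macrophages also express moved less, as Fcrls did at −0.93 and Cst3 at −0.58.

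Of 18 tested yolk sac and border macrophage markers, 14 were higher in yolk sac and none lower, where 7.04% of all tested genes were higher, with a median log2 fold change of 2.70. Folr2, a folate receptor, was at 363, 272, 449.7 and 389 CPM in yolk sac and 26.3, 16.8, 4.28 and 4.38 CPM in brain (edgeR log2 fold change 4.59, SE 0.36, adjusted p = 2.12e-13). Ms4a7, a membrane protein of tissue macrophages, was at 437, 370.1, 372 and 486 CPM in yolk sac and 28.3, 31.8, 47.1 and 30.6 CPM in brain (edgeR log2 fold change 3.66, SE 0.28, adjusted p = 2.43e-13). The mannose receptor Mrc1 was at 167, 152, 1284 and 730.4 CPM in yolk sac and 48.6, 56.2, 12.9 and 4.38 CPM in brain (edgeR log2 fold change 4.07, SE 0.72, adjusted p = 8.04e-04). All yolk sac libraries exceeded all brain libraries for the 3 genes, which the naming rule required of them. Mrc1 differed by several fold between the yolk sac plates, with replicates 3 and 4 high and replicates 1 and 2 low. In the shared batch its log2 fold change was 4.14, and with counts summed per plate it was not called (adjusted p = 0.14). The row that joins Lyz1 and Lyz2 differed between the plates in the same way, at 248, 265, 2456 and 1235 CPM in yolk sac and 386, 504, 42.8 and 56.9 CPM in brain, and did not pass (adjusted p = 0.115).

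**Figure D3:**
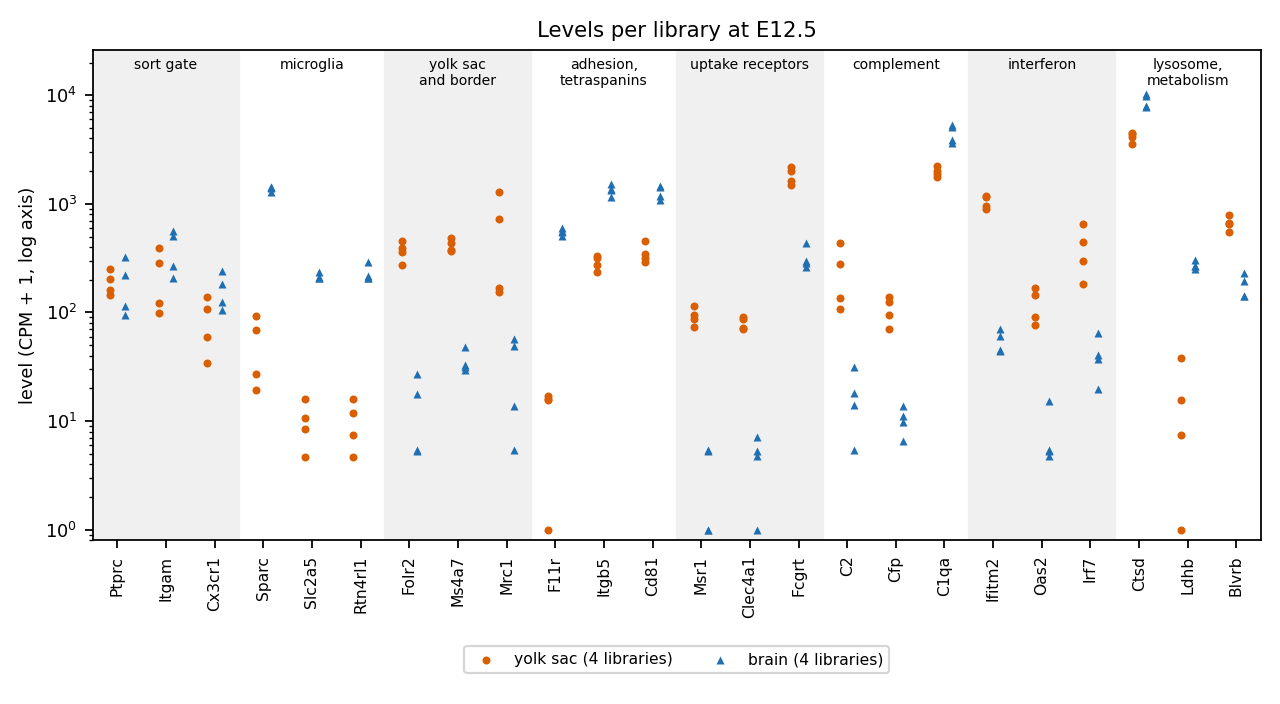
Level of 24 named genes in each of the 8 libraries (CPM + 1, log axis), 1 point per library, grouped by role. Yolk sac and brain points separate fully for every gene shown except Ptprc, Itgam and Cx3cr1. Genes named for size were required to be without overlap, so their separation follows from the naming rule.

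Sums per library do not show how UMIs are spread over wells, so the wells were also read singly. Detection in a well rises with depth and level. The shares below thus do not separate fewer positive cells from fewer transcripts per cell. Every well was thinned to 300 UMIs, and the 7 microglia and 9 yolk sac and border macrophage genes used as cell type markers were counted in it. Of 671 yolk sac wells, 470 held a UMI of the yolk sac set and 24 a UMI of the microglia set. Of 718 brain wells, 461 held a UMI of the microglia set and 36 a UMI of the yolk sac set. At full depth, 615 yolk sac wells held a UMI of the yolk sac set and 104 (15.5%) one of the microglia set. In brain 674 held one of the microglia set and 130 (18.1%) one of the yolk sac set. No UMI of either set was found in 193 yolk sac and 240 brain wells, which stay in the totals. Wells with more UMIs of the other tissue's set than of their own numbered 8 in yolk sac (1.19%) and 20 in brain (2.79%), counted after thinning. By library they ran from 0% to 1.88% in yolk sac and from 1.15% to 4.86% in brain. At full depth there were 8 and 21 such wells, and 13 of the 21 brain wells held at least 3 UMIs of the yolk sac set. The count was first made with the 2 longer lists, which contain abundant genes present in both tissues, and gave shares of 5.66% and 32.9%. The shorter sets were taken after those were seen. They include many of the genes that differ most between these same libraries, so an excess of the own set was built in and the shares only describe the wells. In wells thinned to 300 UMIs Pf4 was found in 48.0% of yolk sac wells and 2.92% of brain wells. Lgals1 was found in 52.3% of yolk sac wells and 14.8% of brain wells. At full depth Pf4 was found in 79.0% of yolk sac wells and 8.36% of brain wells. Lgals1 was then found in 89.7% and 52.8%. A median of 237 to 242 genes was detected per yolk sac well of 300 UMIs and 238 to 250 per brain well. The difference was −5.38 genes, which a two-sided exact permutation test over 4 libraries each did not separate (p = 0.20, smallest possible 0.0286).

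**Figure D4:**
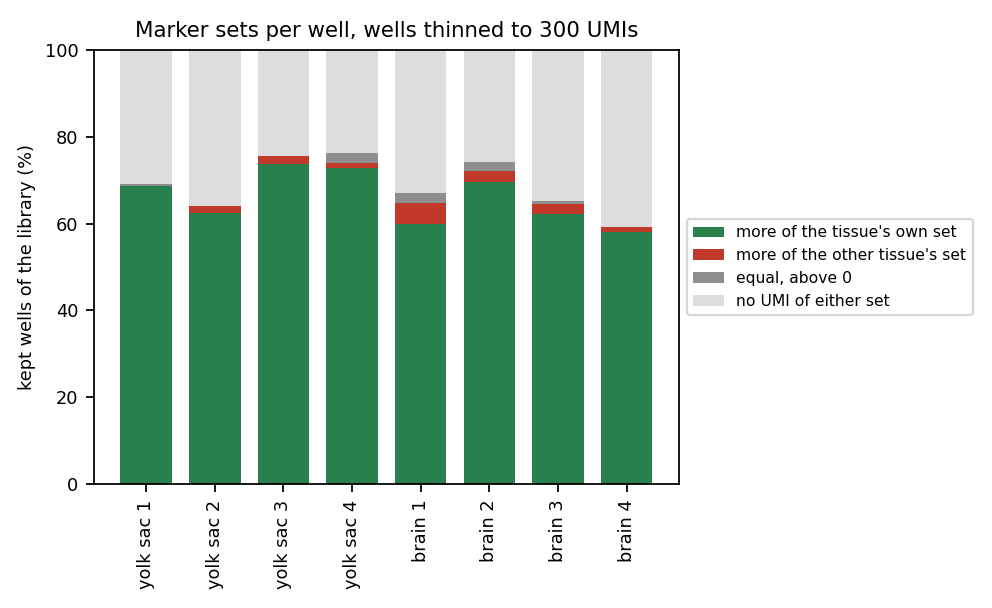
Wells of each library sorted by which marker set gave more UMIs after thinning to 300 UMIs per well, as a percentage of the library's kept wells (y axis, stacked from 0). Wells with more of the tissue's own set are the largest part in all 8 libraries. The sets include genes that differ most between these libraries, so this describes the wells and tests nothing. Wells with more of the other set number 8 of 671 in yolk sac and 20 of 718 in brain, and 193 and 240 wells hold no UMI of either set.

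For this and the following gene lists, the counts stand beside 7.04% of all tested genes higher in yolk sac and 8.81% lower. Cell surface genes divided by function. Of 16 tested integrins and adhesion molecules, 9 were lower in yolk sac, 1 was higher and 6 did not pass. F11r, the junction adhesion molecule A, was at 14.8, 14.5, 16.2 and 0 CPM in yolk sac and 558, 552, 501 and 595 CPM in brain (edgeR log2 fold change −5.48, SE 0.28, adjusted p = 4.18e-19). Itgb5, the integrin chain that helps phagocytes bind dying cells, was at 318, 327, 236 and 274 CPM in yolk sac and 1341, 1359, 1529.6 and 1164 CPM in brain (edgeR log2 fold change −2.19, SE 0.15, adjusted p = 5.01e-15). Both were separated between the tissues by a wide margin in every library, and for F11r the naming rule required a lack of overlap. The row of Cadm1, an immunoglobulin-type cell adhesion molecule, was at 6.47 to 18.5 CPM in yolk sac and 110.4 to 129 CPM in brain (edgeR log2 fold change −3.17, SE 0.37, adjusted p = 1.04e-08). Itgb2, which pairs with CD11B, was at 66.6, 65.3, 51.8 and 66.7 CPM in yolk sac and 149.7, 149.8, 171 and 179 CPM in brain (edgeR log2 fold change −1.32, SE 0.24, adjusted p = 5.41e-05). The gene that went the other way was Ninj1, a small adhesion protein (edgeR log2 fold change 0.71, SE 0.20, adjusted p = 0.00951), and it was not called without brain replicate 1 (adjusted p = 0.0573) or in the shared batch (0.0897). Itgb1, the common integrin chain, had a log2 fold change of 0.07 (adjusted p = 0.91).

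Tetraspanins, membrane-spanning proteins that organise other receptors in the membrane, leaned the same way, with 7 of 12 lower in yolk sac, 1 higher and 4 that did not pass. Cd81 was at 318, 454, 288 and 345 CPM in yolk sac and 1086, 1172, 1465 and 1440.0 CPM in brain (edgeR log2 fold change −1.84, SE 0.16, adjusted p = 2.19e-12). Cd9 was at 51.8, 138, 159 and 126 CPM in yolk sac and 700.0, 812, 454 and 289 CPM in brain (edgeR log2 fold change −2.21, SE 0.32, adjusted p = 3.43e-05). Cd82 was at 37.0, 36.3, 16.2 and 33.4 CPM in yolk sac and 184, 144, 279 and 232 CPM in brain (edgeR log2 fold change −2.71, SE 0.30, adjusted p = 1.78e-09). For all 3 the yolk sac libraries lay below the brain libraries, and the level of Cd9 was lower in brain replicates 3 and 4 than in replicates 1 and 2. Tspan13 was lower by a similar amount (edgeR log2 fold change −2.56, SE 0.30, adjusted p = 8.12e-09). Tspan7 was higher in yolk sac (edgeR log2 fold change 2.43, SE 0.49, adjusted p = 2.44e-04), at 18.5 to 54.4 CPM against 4.05 to 11.2 CPM.

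Receptors that bind and take up ligands were mostly higher in yolk sac. Of 13 tested scavenger and lectin receptors, a set that shares Clec10a, Mrc1, Fcna and the row of Stab1 with the marker list above, 8 were higher, 1 lower and 4 did not pass. Msr1, the class A scavenger receptor, was at 85.1, 72.6, 113 and 92.7 CPM in yolk sac and 0, 0, 4.28 and 4.38 CPM in brain. It was 68.3 times higher in yolk sac by summed UMIs (exact 95% interval 18.4 to 571, 2 UMIs in brain), and edgeR gave an adjusted p of 3.68e-08. Clec4a1, a C-type lectin of the dendritic cell immunoreceptor family, was at 88.8, 68.9, 71.2 and 85.3 CPM in yolk sac and 6.07, 3.74, 4.28 and 0 CPM in brain (edgeR log2 fold change 4.18, SE 0.59, adjusted p = 5.00e-07). Lgals3 is a galectin that macrophages secrete and not a receptor, and it is counted with the annexins, S100 proteins and galectins below. It was at 141, 123, 339.7 and 349 CPM in yolk sac and 24.3, 44.9, 21.4 and 21.9 CPM in brain (edgeR log2 fold change 3.03, SE 0.46, adjusted p = 2.40e-05). All 3 were low in every brain library. Scarb2, a lysosomal membrane protein of the same family as the scavenger receptors, was lower in yolk sac (edgeR log2 fold change −1.16, SE 0.20, adjusted p = 2.36e-05). Cd68, often used as a general macrophage marker, did not pass (edgeR log2 fold change 0.44, SE 0.17, adjusted p = 0.0696).

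Among 16 Fc and inhibitory receptors 5 were higher, 7 lower and 4 did not pass. The higher ones were mostly receptors that bind immunoglobulin. Fcgrt, the neonatal Fc receptor that carries IgG and albumin across cells, was at 2168, 2021, 1498 and 1624 CPM in yolk sac and 263, 283, 296 and 438 CPM in brain (edgeR log2 fold change 2.56, SE 0.19, adjusted p = 5.29e-14). Fcgr2b, the inhibitory IgG receptor, was at 118, 156, 152 and 100.1 CPM in yolk sac and 20.2, 31.8, 12.9 and 8.75 CPM in brain (edgeR log2 fold change 2.70, SE 0.31, adjusted p = 6.09e-09). Fcgr1, the high-affinity IgG receptor, was at 1095, 1049, 1776 and 2073 CPM in yolk sac and 789, 822, 553 and 495 CPM in brain (edgeR log2 fold change 1.21, SE 0.20, adjusted p = 3.98e-05), and the shared signalling chain Fcer1g was also higher (edgeR log2 fold change 0.82, SE 0.15, adjusted p = 7.79e-05). No yolk sac library overlapped a brain library for these 4 genes. Fcgr3 was separated as well but did not pass (edgeR log2 fold change 0.85, SE 0.30, adjusted p = 0.0723). The lower ones bind sialic acid or collagen, or are small surface glycoproteins. Lair1, an inhibitory collagen receptor, was at 0, 3.63, 19.4 and 26.0 CPM in yolk sac and 271, 234, 68.6 and 78.8 CPM in brain (edgeR log2 fold change −3.68, SE 0.55, adjusted p = 3.11e-05), with brain replicates 1 and 2 well above replicates 3 and 4. Siglech, a sialic acid binding lectin, was at 0, 25.4, 42.1 and 3.71 CPM in yolk sac and 245, 264, 90.0 and 127 CPM in brain (edgeR log2 fold change −3.26, SE 0.58, adjusted p = 6.51e-04) and missed the threshold with the batch covariate (adjusted p = 0.0528). Cd52 was at 1180.4, 1383, 1427 and 1620.3 CPM in yolk sac and 2634, 2544, 3274 and 2714 CPM in brain (edgeR log2 fold change −0.96, SE 0.16, adjusted p = 7.94e-06).

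Genes for the uptake of dying cells were lower in 5 of 14 cases, higher in 1 and without a call in 8. The receptor tyrosine kinase Axl was at 22.2, 3.63, 38.8 and 89.0 CPM in yolk sac and 180.0, 99.2, 85.7 and 127 CPM in brain (edgeR log2 fold change −1.64, SE 0.47, adjusted p = 0.0154), with yolk sac replicate 4 above brain replicate 3, and was not called without brain replicate 1 or yolk sac replicate 1 (adjusted p = 0.0630 and 0.0545). Its ligand Gas6, which bridges the kinase to phosphatidylserine on dying cells, was at 2416, 1923, 1886 and 2392 CPM in yolk sac and 519.9, 459, 621 and 718 CPM in brain (edgeR log2 fold change 1.93, SE 0.17, adjusted p = 7.02e-12). The pair therefore differed in opposite directions, the ligand without overlap and the kinase with overlap. The small GTPase Rac2, which drives engulfment, had a log2 fold change of −0.13 (adjusted p = 0.71).

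In complement, clotting and fibrinolysis 6 of 14 genes were higher, 4 lower and 4 did not pass. C2, a protease of the classical pathway, was at 107, 134, 278 and 430.1 CPM in yolk sac and 30.3, 13.1, 17.1 and 4.38 CPM in brain (edgeR log2 fold change 3.76, SE 0.45, adjusted p = 2.38e-07). Cfp, properdin, which stabilises the alternative pathway convertase, was at 137, 68.9, 123 and 92.7 CPM in yolk sac and 10.1, 5.62, 12.9 and 8.75 CPM in brain (edgeR log2 fold change 3.54, SE 0.50, adjusted p = 8.35e-07). C5ar1, the receptor for the C5a fragment, was at 107, 109, 100.3 and 74.2 CPM in yolk sac and 28.3, 11.2, 8.57 and 13.1 CPM in brain (edgeR log2 fold change 2.59, SE 0.40, adjusted p = 2.30e-06). All 3 were higher in each yolk sac library than in any brain library, which the naming rule required of C2. C1qa was at 2006, 1879.7, 1747 and 2247 CPM in yolk sac and 3593, 3879, 5069 and 5266 CPM in brain (edgeR log2 fold change −1.15, SE 0.14, adjusted p = 2.55e-08), while C1qb and C1qc, which assemble with it into 1 protein, were at −0.31 and −0.23. The difference between the chains was not tested. Serpine2, which inhibits thrombin and plasminogen activators, was at 0, 3.63, 35.6 and 33.4 CPM in yolk sac and 674, 713, 823 and 980.4 CPM in brain (edgeR log2 fold change −5.35, SE 0.38, adjusted p = 6.45e-10) and was close to 0 in yolk sac replicates 1 and 2. Another protease inhibitor, Spint1, was 119 times higher in brain by summed UMIs (exact 95% interval 32.6 to 986, 2 UMIs in yolk sac).

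Annexins, S100 proteins and galectins, which bind calcium and membranes or sugars, were the family with the largest share of higher genes among the lists not built from macrophage markers: 9 of 12 were higher, 1 lower and 2 did not pass. Lgals1 was at 3471, 2798, 2375 and 2844 CPM in yolk sac and 679.7, 679, 677 and 508 CPM in brain (edgeR log2 fold change 2.21, SE 0.18, adjusted p = 7.66e-13). Anxa5, which binds phosphatidylserine, was at 888, 798, 514 and 675 CPM in yolk sac and 210.4, 277, 223 and 254 CPM in brain (edgeR log2 fold change 1.61, SE 0.20, adjusted p = 4.61e-08). S100a10, the partner of annexin A2 at the cell surface, was at 185, 196, 272 and 241 CPM in yolk sac and 62.7, 46.8, 47.1 and 74.4 CPM in brain (edgeR log2 fold change 2.00, SE 0.34, adjusted p = 2.36e-05). The exception was Anxa3, at 70.3, 72.6, 55.0 and 74.2 CPM in yolk sac and 269, 273, 219 and 193 CPM in brain (edgeR log2 fold change −1.78, SE 0.22, adjusted p = 3.96e-08). Lgals9 had no call and followed the sequencing batch, at 115, 83.5, 618 and 489 CPM in yolk sac and 669.6, 605, 98.5 and 96.3 CPM in brain.

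Growth factors and cytokine receptors showed 9 higher, 6 lower and 15 uncalled genes of 30. Igf1, the insulin-like growth factor, was at 389, 283, 482 and 578 CPM in yolk sac and 66.8, 37.4, 55.7 and 35.0 CPM in brain (edgeR log2 fold change 3.17, SE 0.32, adjusted p = 1.17e-09). Epor, the erythropoietin receptor, was at 118, 109, 51.8 and 59.3 CPM in yolk sac and 6.07, 9.36, 0 and 17.5 CPM in brain (edgeR log2 fold change 3.35, SE 0.54, adjusted p = 7.66e-06), while hemoglobin transcripts were also higher in yolk sac and the part of red cell RNA in this value was not tested. Epor was highest in yolk sac replicates 1 and 2, and hemoglobin in replicate 2. Il18, a cytokine of the interleukin 1 family, was at 81.4, 105, 29.1 and 96.4 CPM in yolk sac and 20.2, 20.6, 17.1 and 17.5 CPM in brain (edgeR log2 fold change 2.03, SE 0.41, adjusted p = 2.30e-04). On the lower side, Il10ra, the ligand-binding chain of the interleukin 10 receptor, was at 25.9, 47.2, 48.5 and 40.8 CPM in yolk sac and 210.4, 209.7, 189 and 140.1 CPM in brain (edgeR log2 fold change −2.16, SE 0.25, adjusted p = 6.82e-09). Il17ra was at 81.4, 87.1, 97.1 and 104 CPM in yolk sac and 227, 208, 184 and 232 CPM in brain (edgeR log2 fold change −1.16, SE 0.23, adjusted p = 2.43e-04). Pdgfb, a platelet-derived growth factor chain, was at 7.40, 32.7, 42.1 and 37.1 CPM in yolk sac and 101, 71.1, 77.1 and 91.9 CPM in brain (edgeR log2 fold change −1.44, SE 0.34, adjusted p = 0.00164). The interferon gamma receptor chain Ifngr2 had a log2 fold change of −0.09 (adjusted p = 0.82).

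Of 21 genes of transforming growth factor beta signalling, 5 were lower, 1 higher and 15 did not pass. The lower genes were the type I receptor Tgfbr1 and 4 inhibitors or targets of the pathway, among them Skil, at 14.8, 7.26, 0 and 18.5 CPM in yolk sac and 101, 69.3, 34.3 and 48.1 CPM in brain (edgeR log2 fold change −2.64, SE 0.45, adjusted p = 1.75e-05), which fell short of the threshold with the batch covariate (adjusted p = 0.0678). Lrrc33, which anchors latent transforming growth factor beta on macrophages and microglia, was higher in yolk sac, at 511, 566, 547 and 475 CPM in yolk sac and 329.7, 311, 279 and 359 CPM in brain (edgeR log2 fold change 0.75, SE 0.17, adjusted p = 8.35e-04). Among 13 G protein-coupled receptors 6 were lower and 1 higher. Gpr84, a receptor for medium-chain fatty acids, was at 11.1, 32.7, 16.2 and 11.1 CPM in yolk sac and 241, 232, 291 and 315 CPM in brain (edgeR log2 fold change −3.84, SE 0.34, adjusted p = 2.00e-11). S1pr1, which senses sphingosine 1-phosphate, was at 25.9, 14.5, 22.6 and 18.5 CPM in yolk sac and 121, 116, 98.5 and 78.8 CPM in brain (edgeR log2 fold change −2.29, SE 0.36, adjusted p = 3.50e-06). Ednrb, an endothelin receptor, was the higher one (edgeR log2 fold change 4.73, SE 0.43, adjusted p = 1.16e-11). Of 8 chemokines 5 were higher and 3 did not pass, with Ccl9 at 167, 159.7, 226 and 237 CPM in yolk sac and 64.7, 31.8, 38.6 and 21.9 CPM in brain (edgeR log2 fold change 2.30, SE 0.28, adjusted p = 3.04e-08).

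The interferon response formed the broadest group of higher genes by count. Type I interferons signal through a complex that contains Stat2 and Irf9 and binds the interferon-stimulated response element in promoters and raises antiviral genes. Of 31 tested genes 22 were higher in yolk sac (71.0%, against 7.04% of all tested genes), none lower and 9 did not pass. Their median log2 fold change was 1.91. Ifitm2, a membrane protein that blocks virus entry, was at 1155, 1179, 961 and 886 CPM in yolk sac and 68.8, 43.1, 60.0 and 43.8 CPM in brain (edgeR log2 fold change 4.30, SE 0.27, adjusted p = 9.21e-16). Oas2, a sensor of double-stranded RNA, was at 88.8, 76.2, 168 and 145 CPM in yolk sac and 14.2, 3.74, 4.28 and 4.38 CPM in brain (edgeR log2 fold change 4.00, SE 0.56, adjusted p = 3.95e-07). Both were higher in every yolk sac library than in any brain library, which the naming rule required of them. Summed over the list, yolk sac libraries reached 8426, 9079, 17112 and 16919 CPM and brain libraries 5310, 5019, 3312 and 3213 CPM. Each tissue thus differed between its plates. Ly6e, a common member of the response, was at 1051, 1321, 4332 and 4168 CPM in yolk sac and 1964, 2168, 741 and 696 CPM in brain and did not pass (adjusted p = 0.25). The receptor chain Ifngr2 above and Psmb8, an inducible proteasome subunit at 0.05, did not pass either.

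Promoter sequences were read for this group because its members moved together and share a well-known element. RefSeq gives a promoter for 20 of the 31 tested members on GRCm38.p6, from 250 bases before to 50 after a transcription start. The motif GAAA, 2 bases of any kind and GAAA again was searched on both strands, with overlaps counted. It occurred in 9 of the 20, in 7 of 14 higher members and in 2 of 6 that did not pass. Counted per gene in the same way, it was held by 120 of 3127 tested genes with a promoter (3.84%). Counted per promoter, it was held by 3.44% of all 32851 promoters. It occurred in none of the 15 matched microglia markers and none of the 13 matched yolk sac and border macrophage markers. The list was made of genes known to respond to interferon, so its share of the motif is a trait of the list and does not test these data. A match describes the sequence and does not show a bound site. Matches before the start were also found in Stat2, which was higher, and in Gbp3, which was not called, and their sequences are not shown. The stretches below lie before the start of 4 higher genes, 5′ to 3′ along the gene, with the matched letters in capitals and a coordinate on GRCm38.p6.
Isg15, chr4:156200835-156200936, minus strand: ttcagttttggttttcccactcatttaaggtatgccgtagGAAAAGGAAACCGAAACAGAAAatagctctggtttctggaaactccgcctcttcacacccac
Bst2, chr8:71537547-71537642, minus strand: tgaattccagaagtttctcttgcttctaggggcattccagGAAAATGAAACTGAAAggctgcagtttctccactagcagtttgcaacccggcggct
Ifitm2, chr7:140955962-140956047, minus strand: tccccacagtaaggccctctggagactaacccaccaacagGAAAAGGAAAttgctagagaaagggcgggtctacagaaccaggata
Oas1a, chr5:120907526-120907585, minus strand: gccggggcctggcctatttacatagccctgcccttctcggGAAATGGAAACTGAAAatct
In Isg15 3 overlapping matches formed 1 run, in Bst2 and Oas1a 2 each, and in Ifitm2 there was 1. Isg15, a ubiquitin-like modifier, had a log2 fold change of 3.25, Bst2, which tethers virus particles, 1.49 and Oas1a 1.99.

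**Figure D5:**
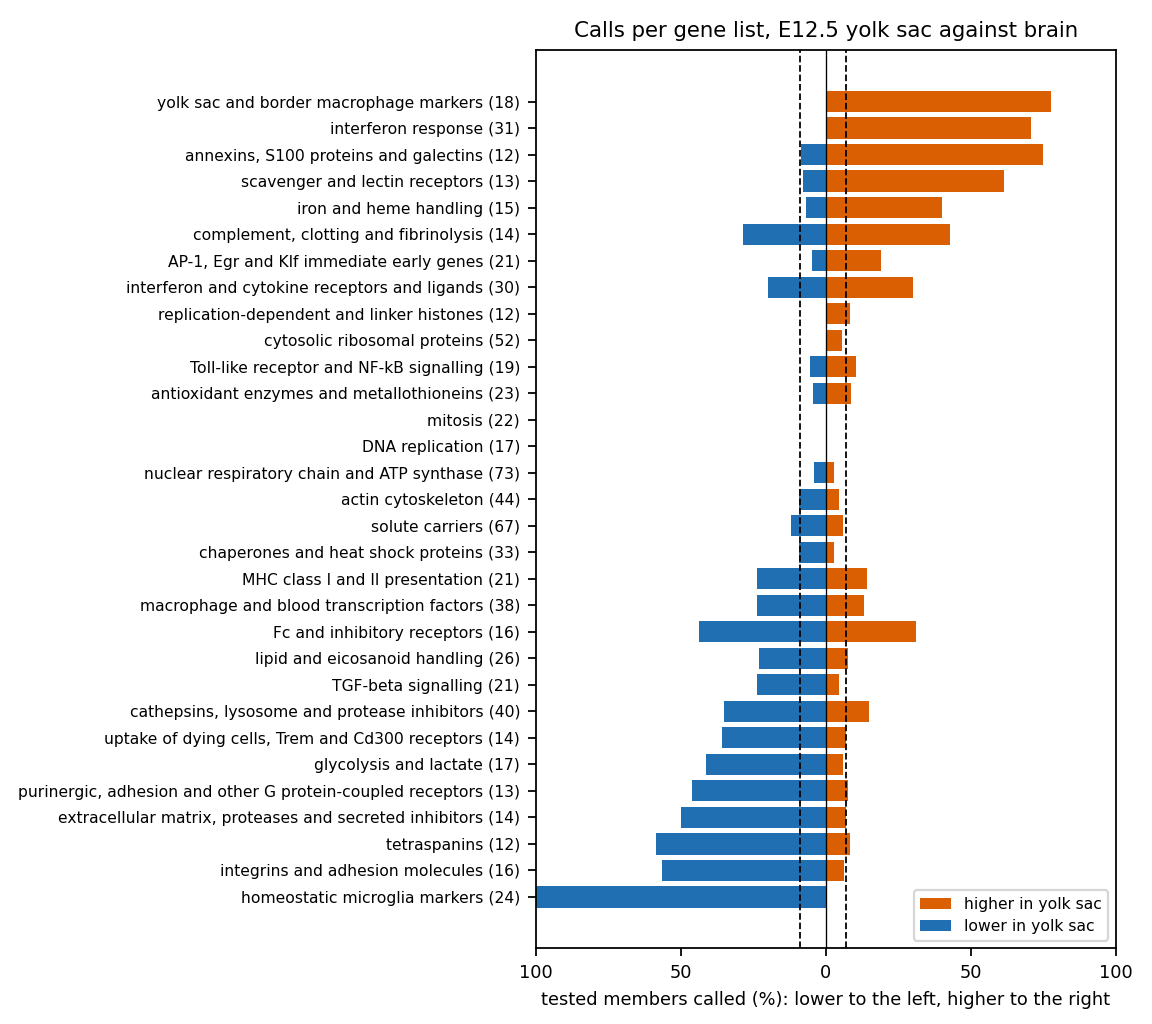
Percentage of tested members called higher (to the right) and lower (to the left) in yolk sac for the 31 gene lists with at least 12 tested members that do not mark other cell types, with the number of tested members beside each name. Dashed lines give the shares over all tested genes, 7.04% and 8.81%.

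Of 38 transcription factors of macrophages and blood, 9 were lower, 5 higher and 24 did not pass. Maf, a basic leucine zipper factor, was at 229, 229, 307 and 297 CPM in yolk sac and 168, 165, 120.0 and 83.2 CPM in brain (edgeR log2 fold change 0.99, SE 0.22, adjusted p = 8.04e-04), without overlap between the tissues. Foxp1 was at 211, 261, 207 and 248 CPM in yolk sac and 62.7, 88.0, 81.4 and 109 CPM in brain (edgeR log2 fold change 1.50, SE 0.25, adjusted p = 1.28e-05). The row of Zeb2, which helps set macrophage identity, was at 299.7, 287, 544 and 415 CPM in yolk sac and 229, 253, 111 and 109 CPM in brain (edgeR log2 fold change 1.14, SE 0.24, adjusted p = 6.26e-04). Ets1 was lower (edgeR log2 fold change −2.01, SE 0.42, adjusted p = 3.69e-04) but not with the batch covariate (adjusted p = 0.40). Runx1, which founds the embryonic blood lineages, had a log2 fold change of 0.28 (adjusted p = 0.38). Of 21 immediate early genes 4 were higher and 1 lower. Fos was at 48.1, 36.3, 84.1 and 22.2 CPM in yolk sac and 2.02, 15.0, 8.57 and 0 CPM in brain (edgeR log2 fold change 2.70, SE 0.43, adjusted p = 1.61e-05), and Jun was higher (edgeR log2 fold change 1.12, SE 0.31, adjusted p = 0.0141). Jun was at 0.34 in the shared batch (adjusted p = 0.63), and was not called without brain replicate 1 or yolk sac replicate 3 (adjusted p = 0.0518 and 0.0778).

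Of 40 cathepsins, lysosomal proteins and protease inhibitors, 14 were lower (35.0%, against 8.81% of all tested genes), 6 higher and 20 did not pass. Their summed level was 34538 to 36058 CPM in yolk sac and 47578 to 50894 CPM in brain, without overlap. Ctsd, the main aspartic protease of lysosomes, was at 4381, 4532, 3543 and 4142 CPM in yolk sac and 7950.3, 7819, 9846 and 10216 CPM in brain (edgeR log2 fold change −1.08, SE 0.12, adjusted p = 5.58e-09). Lgmn, the asparaginyl endopeptidase, was at 2612, 2384, 1692 and 1861 CPM in yolk sac and 4902, 4719, 5866 and 5603 CPM in brain (edgeR log2 fold change −1.27, SE 0.14, adjusted p = 1.38e-09). Gusb and Naglu, which break down glycosaminoglycans, had log2 fold changes of −1.57 and −1.87. On the higher side were Lamp1, a structural protein of the lysosomal membrane (edgeR log2 fold change 0.55, SE 0.13, adjusted p = 0.00166), the aminopeptidase Ctsc (edgeR log2 fold change 0.59, SE 0.18, adjusted p = 0.0212) and the cathepsin inhibitor Cstb (edgeR log2 fold change 0.63, SE 0.17, adjusted p = 0.00718). Cstb was not called with the batch covariate (0.52, adjusted p = 0.13). The differences of the higher genes were under 2-fold, and Ctsc, which overlapped between the tissues, was not called without yolk sac replicate 1 or 2 or brain replicate 2 or 3 (adjusted p from 0.0559 to 0.108). Ctss, which trims the invariant chain, was at 651, 682, 987 and 1034 CPM in yolk sac and 4202, 3901, 1414 and 1221 CPM in brain, lower in yolk sac (edgeR log2 fold change −1.62, SE 0.39, adjusted p = 0.00836) but not called with the batch covariate (adjusted p = 0.13). For presentation by MHC, 5 of 21 genes were lower and 3 higher. The peptide editor H2-DMa was at 29.6, 39.9, 16.2 and 40.8 CPM in yolk sac and 247, 238, 287 and 276 CPM in brain (edgeR log2 fold change −3.00, SE 0.29, adjusted p = 7.92e-11), and the row of the class I chain H2-D1 was higher, at 418, 388, 718 and 641 CPM in yolk sac and 281, 239.6, 261 and 219 CPM in brain (edgeR log2 fold change 1.15, SE 0.21, adjusted p = 7.75e-05). The latter narrowly missed the threshold with the batch covariate (0.74, adjusted p = 0.0529).

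Metabolic genes were grouped by pathway. Of 26 genes of lipid and eicosanoid handling, 6 were lower, 2 higher and 18 did not pass. Pltp, the phospholipid transfer protein, was at 170.2, 225, 165 and 200.2 CPM in yolk sac and 6.07, 3.74, 12.9 and 0 CPM in brain (edgeR log2 fold change 5.05, SE 0.49, adjusted p = 9.20e-11). Abcg1, which exports cholesterol, was at 37.0, 43.5, 38.8 and 37.1 CPM in yolk sac and 307, 223, 227 and 197 CPM in brain (edgeR log2 fold change −2.56, SE 0.24, adjusted p = 4.30e-11). Ptgs1, cyclooxygenase 1, was at 37.0, 29.0, 58.2 and 63.0 CPM in yolk sac and 477, 459, 193 and 223 CPM in brain (edgeR log2 fold change −2.81, SE 0.27, adjusted p = 1.45e-10), and Scd2, a fatty acid desaturase, was lower as well (edgeR log2 fold change −2.20, SE 0.31, adjusted p = 6.32e-07). In glycolysis 7 of 17 genes were lower (41.2%) and 1 higher, and the summed level was 5361 to 6495 CPM in yolk sac and 7625 to 9117 CPM in brain, without overlap. Ldhb, the lactate dehydrogenase chain that favours pyruvate, was at 0, 14.5, 6.47 and 37.1 CPM in yolk sac and 265, 266, 299.9 and 249 CPM in brain (edgeR log2 fold change −4.15, SE 0.33, adjusted p = 4.84e-13), while its partner Ldha was at 766, 849, 770.0 and 634 CPM in yolk sac and 997, 1022, 913 and 1042 CPM in brain and did not pass (edgeR log2 fold change −0.36, SE 0.15, adjusted p = 0.12). Hk3, a hexokinase of myeloid cells, was the higher gene (edgeR log2 fold change 1.12, SE 0.33, adjusted p = 0.0131), but was not called without brain replicate 1 (adjusted p = 0.0946) or in the shared batch (0.115). In iron and heme handling 6 of 15 genes were higher and 1 lower. Blvrb, which reduces biliverdin, was at 781, 649.5, 550.0 and 660.0 CPM in yolk sac and 139.6, 140.4, 193 and 228 CPM in brain (edgeR log2 fold change 1.98, SE 0.22, adjusted p = 3.51e-09). Hemoglobin transcripts were higher in the same libraries, and their part in these values was not tested.

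Outside the lists, Sepp1, the selenium transport protein, was at 7123, 6401, 4335 and 4168 CPM in yolk sac and 1744, 1639.8, 1611 and 1580.1 CPM in brain (edgeR log2 fold change 1.78, SE 0.15, adjusted p = 8.22e-13). Tmem8 was at 370.0, 316, 336 and 293 CPM in yolk sac and 22.3, 20.6, 17.1 and 35.0 CPM in brain (edgeR log2 fold change 3.85, SE 0.32, adjusted p = 1.44e-12). Plxdc2, a plexin domain protein, was at 3.70, 10.9, 19.4 and 14.8 CPM in yolk sac and 324, 269.6, 274 and 136 CPM in brain (edgeR log2 fold change −4.25, SE 0.32, adjusted p = 5.29e-14). Gnas, the stimulatory G protein subunit, was at 1599, 1488, 1323 and 1520.2 CPM in yolk sac and 2703, 2694, 3329 and 2849 CPM in brain (edgeR log2 fold change −0.93, SE 0.13, adjusted p = 6.86e-07). Spsb1, an adaptor of a ubiquitin ligase, had the largest negative value in the naming rule and was 161 times higher in brain by summed UMIs (exact 95% interval 28.7 to 6407, 1 UMI in yolk sac).

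Several groups showed few or no calls. None of 17 tested DNA replication genes and none of 22 mitosis genes was called by edgeR, and 5 of the 39 had an unadjusted p under 0.05. DESeq2 called 0 of them and limma-voom 2. Their median log2 fold changes were −0.19 and −0.44. The summed level of the mitosis genes was 2501 to 3212 CPM in yolk sac and 3299 to 4075 CPM in brain, without overlap. Mcm5, a subunit of the replicative helicase, was at 152, 174, 159 and 171 CPM in yolk sac and 198, 185, 231 and 223 CPM in brain (edgeR log2 fold change −0.31, SE 0.23, adjusted p = 0.46). Ube2c, which marks mitotic proteins for destruction, was at 241, 258, 171 and 248 CPM in yolk sac and 245, 255, 321 and 411 CPM in brain (edgeR log2 fold change −0.38, SE 0.37, adjusted p = 0.6). The inhibitor of cyclin-dependent kinases Cdkn1a was at 148, 109, 226 and 215 CPM in yolk sac and 40.5, 44.9, 42.8 and 43.8 CPM in brain (edgeR log2 fold change 2.06, SE 0.33, adjusted p = 4.62e-06). Ccnd1, cyclin D1, passed narrowly (edgeR log2 fold change 1.08, SE 0.37, adjusted p = 0.0386) but was at −0.17 in the shared batch (adjusted p = 0.88). It was not called without brain replicate 1 or 2 or yolk sac replicate 3 or 4 (adjusted p from 0.127 to 0.228). Of 73 nuclear genes of the respiratory chain and ATP synthase 6.85% were called and of 52 ribosomal protein genes 5.77%, against 15.9% of all tested genes. Of 33 chaperones 12.1% were called, nearer that share. Of 44 actin cytoskeleton genes 13.6% were called, near the 15.9% of all tested genes. Among them Zyx, zyxin, was higher (edgeR log2 fold change 0.99, SE 0.18, adjusted p = 5.40e-05) and Myh9, the heavy chain of nonmuscle myosin, lower (edgeR log2 fold change −1.21, SE 0.18, adjusted p = 8.55e-07). A missed threshold does not show equal levels, and only the 175 genes named above by their intervals were bounded within 0.5.

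The row that contains H19, an imprinted noncoding RNA of embryonic tissue, was at 222, 621, 1032 and 971 CPM in yolk sac and 97.1, 37.4, 8.57 and 26.3 CPM in brain (edgeR log2 fold change 3.95, SE 0.56, adjusted p = 7.63e-05). Genes listed for other blood cells were present beside the hemoglobin and granulocyte sums given above. The neutrophil protease Elane was at 70.3, 25.4, 201 and 512 CPM in yolk sac and 4.05, 3.74, 8.57 and 17.5 CPM in brain (edgeR log2 fold change 4.81, SE 1.15, adjusted p = 0.00852), highest in yolk sac replicate 4, and was not called with the batch covariate (adjusted p = 0.63). Cd34 and Sox4, listed as progenitor genes, were lower in yolk sac, Cd34 at 62.9, 54.4, 29.1 and 40.8 CPM in yolk sac and 169.9, 129, 176 and 201 CPM in brain (edgeR log2 fold change −1.80, SE 0.29, adjusted p = 6.01e-06) and Sox4 at 29.6, 25.4, 71.2 and 44.5 CPM in yolk sac and 142, 153, 184 and 96.3 CPM in brain (edgeR log2 fold change −1.69, SE 0.30, adjusted p = 3.25e-05). At full depth Cd34 was found in 22.0% of brain wells and 4.62% of yolk sac wells, and Sox4 in 19.8% and 5.51%. Whether those wells hold progenitors was not tested.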

How the data were processed

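Single cells were sorted into plates and counted by MARS-seq. The authors deposited 1 table of UMI counts over all wells, whole numbers that are not normalized, and a well annotation that assigns wells to libraries. It has 27297 gene rows, of which 2109 join several symbols. The highest count in a well was 256, of a hemoglobin gene, and may be a ceiling, so hemoglobin sums may be too low. No gene named here exceeded 87 in a kept E12.5 well. Demultiplexing used bcl2fastq 2.15.0.4 and the genome build was mm9, per the submitters' processing notes. Which aligner, UMI collapsing and annotation were used is not given in the sources used here. Counts are of 3′ ends, so levels were not compared between genes per length, and genes that share a row or near-identical copies cannot be told apart.

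Wells with 1 sorted cell and at least 300 UMIs were kept, and their counts were summed per library, named by tissue and replicate in accession order. No doublet caller was run, since each well was sorted to hold 1 cell. CPM is the summed count scaled to a library total of 1000000. All 18 libraries, which also hold 10 brain libraries of other ages, were fitted together with edgeR 4.0.16 (TMM scaling, filterByExpr, robust quasi-likelihood test) in R 4.3.3. The contrast of E12.5 yolk sac minus brain was adjusted by Benjamini-Hochberg over all tested genes, with calls at an adjusted p under 0.05. SEs were derived from the fold change and its F statistic. The alternatives were other scalings, filters, well minimums, thinning, the batch as a covariate or restriction, plate sums, omission of single libraries, DESeq2 1.42.0 and limma 3.58.1 (voom). Thinning drew UMIs without replacement. Values per well and exact tests used Python 3.11.15 and scipy 1.17.1. Intervals from summed UMIs are exact and cover counting error only. The fit was tested on counts simulated without plate or batch effects. It called 33 of 67 genes changed 2-fold and 65 of 67 changed 4-fold, and 1.81% of its calls were of unchanged genes. Many 2-fold changes can therefore be missed.

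Genes were named by a rule. By size, it took 15 genes per direction, ranked on fold change, from called rows of 1 symbol, with at least 100 CPM in the higher tissue and no overlap. Ribosomal, mitochondrial, hemoglobin and numbered genes were passed over. It added the 10 called genes of highest level in each direction and the 10 highest-level genes whose 95% interval lay within 0.5 of 0. Per list it took up to 4 called genes per direction and 2 uncalled ones, and it always took the 3 genes of the gate. The text gives a selection of these, and some genes are not reported here. The members, the gene lists and the tests were chosen with earlier results of these data known. Promoter sequences and their coordinates came from RefSeq on GRCm38.p6 and were matched by symbol only, and no coordinate of the deposited build was used.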

Additional observations from a re-analysis of the deposited data

Results flagged for a closer look

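In groups of 4 libraries a value was singled out when its gap to the nearest other library, divided by the range, passed Dixon's limit for 4 values. Chance gives about 1 such group in 20, and 12 of the 286 groups looked at were found, where 14.3 would be met at that rate.

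In yolk sac, F11r was at 0 CPM in replicate 4 and at 14.5 to 16.2 CPM in the others. Itgb2 was at 51.8 CPM in replicate 3, below 65.3 to 66.7 CPM in the others. Scarb2 was at 181 CPM in replicate 1, above 111 to 113 CPM. Spint1 was at 7.42 CPM and Spsb1 at 3.71 CPM in replicate 4 and at 0 in the other yolk sac libraries, which is 2 UMIs and 1 UMI. The median number of UMIs per well was 1708 in replicate 3 against 1411.5 to 1458.

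In brain, Irf9 was at 26.3 CPM in replicate 4, below 60.0 to 63.6 CPM in the others, and Lgals1 at 508 CPM in replicate 4, below 677 to 679.7 CPM. Lgals3 was at 44.9 CPM in replicate 2, above 21.4 to 24.3 CPM, and Tspan7 at 11.2 CPM in replicate 2, above 4.05 to 4.38 CPM. Oas2 was at 14.2 CPM in replicate 1, above 3.74 to 4.38 CPM. Rtn4rl1 was at 291 CPM in replicate 3, above 206 to 213 CPM. Each gene of this section other than Irf9 was called between the tissues with and without the library in question.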

How the results depend on the processing

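Of the 115 called genes named in the text, 70 stayed called in each of the 24 other settings that gave a value, and 45 lost the call in at least 1. Leaving out the requirement of a change beyond 2-fold, 21 lost it. With the counts summed per plate, 493 genes were called and 261 were lower, and with the batch as a covariate 274 were lower. Plate sums ended the calls of Axl, C1qb, Ccnd1, Csf1r, Cst3, Cstb, Ctsc, Ctss, Cx3cr1, Elane, Hk3, Jun, Lamp1, Mrc1, Ninj1 and P2ry13. Thinned libraries gave 377 calls, 154 higher and 223 lower, among fewer tested genes. A log2 fold change beyond 1 left 222 calls, 98 higher and 124 lower. Without 1 library, 625 to 727 genes were called, 285 to 348 higher and 340 to 396 lower. The other settings stayed within 1.5 times of the 774, 344 and 430 genes reported. Ccnd1 turned to −0.19 with the batch covariate and to −0.17 in the shared batch; the cause was not tested. Wells with more of the other tissue's set made up 1.19% in yolk sac and 2.79% in brain with the shorter marker sets, a setting chosen after seeing the data like that of wells with 5 C1q UMIs per 1000. No paired analysis was possible because the labels give no replicate numbers. The depth of 228467 to 534219 UMIs per library limits what can be seen of genes near 10 CPM, where 1 library holds only a few UMIs. Plate, batch and library preparation run with tissue outside the shared batch, and within it plate and tissue cannot be told apart.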

Other observations

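Genes of clathrin-mediated uptake and of early endosomes were more often higher in yolk sac than in brain. The group was noticed after the values were seen, so its count is a description: of 51 tested genes of the clathrin coat, its adaptors and early endosomes, 17 were higher (33.3%, against 7.04% of all tested genes), 1 was lower (1.96%, against 8.81%) and 33 were not called, with a median log2 fold change of 0.41, against −0.05 over all tested genes. The row of Ap2a2, a large subunit of the AP-2 adaptor that gathers receptors into coated pits, was at 1747, 1669, 1579 and 1650.0 CPM in yolk sac and 281, 281, 209.9 and 223 CPM in brain (edgeR log2 fold change 2.77, SE 0.19, adjusted p = 4.04e-15). Dab2, an adaptor for lipoprotein receptors, was at 1217, 943, 1385 and 1105 CPM in yolk sac and 139.6, 118, 51.4 and 56.9 CPM in brain (edgeR log2 fold change 3.63, SE 0.25, adjusted p = 1.06e-13). Ehd4, which acts on recycling endosomes, was at 1103, 899.9, 1446 and 1453 CPM in yolk sac and 445, 408, 274 and 223 CPM in brain (edgeR log2 fold change 1.88, SE 0.19, adjusted p = 1.23e-10), and the sorting nexin Snx6 was at 1166, 1059.6, 954 and 916 CPM in yolk sac and 362, 393, 326 and 359 CPM in brain (edgeR log2 fold change 1.54, SE 0.18, adjusted p = 7.18e-09). No yolk sac library overlapped a brain library for these 4. The smaller AP-2 subunits, Ap2m1 at 1.44 and Ap2s1 at 1.28, and the clathrin light chain Clta at 0.69 were higher too. Bin1, which bends membranes, was the lower gene (edgeR log2 fold change −0.87, SE 0.15, adjusted p = 1.62e-05). Dab2 also belongs to the yolk sac and border macrophage markers of the report.

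Phgdh, the first enzyme of serine synthesis, was at 44.4, 76.2, 67.9 and 48.2 CPM in yolk sac and 109, 116, 231 and 206 CPM in brain (edgeR log2 fold change −1.39, SE 0.29, adjusted p = 3.30e-04), also chosen after its values were seen. It was higher in the brain cells, and of the 4 tested genes of serine and one-carbon metabolism 2 were lower in yolk sac and 2 were not called.

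Many genes separated the libraries by sequencing batch instead of tissue. For 629 of 4883 tested genes (12.9%) the 4 libraries of the shared batch, 2 of each tissue, lay all below or all above the other 4, against 973 (19.9%) that separated the tissues. The shared batch was the lower side for 401 of them. Eef1a1, the translation elongation factor, was at 285, 178, 2051 and 1157 CPM in yolk sac and 2031, 2143, 189 and 219 CPM in brain (edgeR log2 fold change −0.27, SE 0.87, adjusted p = 0.9). Pomp, which assembles the proteasome, was at 96.2, 123, 599 and 400.4 CPM in yolk sac and 631, 779, 116 and 144 CPM in brain (edgeR log2 fold change −0.43, SE 0.69, adjusted p = 0.78), and Uqcrh, a subunit of respiratory complex III, at 33.3, 61.7, 453 and 430.1 CPM in yolk sac and 352, 333, 47.1 and 83.2 CPM in brain (edgeR log2 fold change 0.25, SE 0.72, adjusted p = 0.89). Yolk sac replicates 1 and 2 and brain replicates 3 and 4 were low for all 3. These genes were named after their values were seen. None of the 629 was called between the tissues, but the way they were picked makes the tissues overlap. That count therefore does not show how far the batch affects the calls.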
